A study of Mus musculus with 6 samples.

Results

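The genes described here encode the arginine methyltransferase that binds PAX7 and the Trithorax (COMPASS-like) histone methyltransferase subunits that act with it. They are 10 genes chosen by symbol: Carm1, Kmt2a, Kmt2b, Kmt2c, Kmt2d, Wdr5, Rbbp5, Ash2l, Dpy30 and Paxip1. The rule uses no measured value, and all 10 passed the filter on low counts, among 17152 genes tested of 54115 genes with a transcript in the files. Their RNA was measured by RNA-sequencing in 3 Pax7WT and 3 Pax7KR samples of satellite cells (muscle stem cells) taken straight from the tissue, and the comparison asks whether the RNA of these cofactors differs when PAX7 carries the substitution.

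Both groups were C57BL/6J mice of the young adult age that the study used outside its work on aged animals. Pax7KR mice carry a germline change, made by CRISPR-Cas9 editing of zygotes, that puts arginine in place of lysine at position 193 of PAX7 (K193R). Pax7WT mice carry the unedited gene. The change is present in all cells of the animal, not in satellite cells alone. Satellite cells of both groups came from uninjured hindlimb muscle and were sorted as positive for α7-integrin and CD34 and negative for CD31, CD11b, SCA-1 and CD45. The labels number the samples within each genotype but do not tie a sample to 1 animal, so p-values measure the spread between these samples.

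PAX7 is the paired-box transcription factor that marks satellite cells. CARM1, also called PRMT4, methylates arginines in the amino-terminal part of PAX7. Methylated PAX7 is then bound by MLL-type complexes, which place methyl groups on lysine 4 of histone H3, the mark of active promoters and enhancers, at PAX7 target genes such as Myf5. Each of these complexes has 1 catalytic KMT2 protein, and all of them share the core of WDR5, RBBP5, ASH2L and DPY30, while PAXIP1 (PTIP) belongs to the complexes of KMT2C and KMT2D.

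The substituted residue lies in exon 4 of the 9 exons of Pax7-201, at chr4:139828577-139828579 on the minus strand of GRCm38. The reference sequence around it, shown because this codon is what separates the 2 genotypes, has the codon in capitals.
Pax7 codon 193: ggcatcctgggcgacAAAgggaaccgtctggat
Among the members, 2 alternative stretches of coding sequence are shown because exon use was read from them in Carm1 and Kmt2a. The first is exon 15 of the 16 exons of Carm1-201 (chr9:21587851-21587919, plus strand), which Carm1-203 leaves out. It has 69 bases, or 23 codons, so leaving it out keeps the reading frame. This exon encodes the stretch in which CARM1 methylates itself.
Carm1 exon 15: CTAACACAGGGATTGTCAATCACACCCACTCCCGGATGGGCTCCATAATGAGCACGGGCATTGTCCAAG
The second is a run of 9 bases, or 3 codons, in exon 14 of the 36 exons of Kmt2a-202 (chr9:44833898-44833906, minus strand), which Kmt2a-201 lacks. The capitals mark these bases, and the bases beside them are in both transcripts.
Kmt2a extension: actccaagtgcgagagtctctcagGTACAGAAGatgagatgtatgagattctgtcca
The deposited values are estimated reads per transcript and carry no base calls, so the genotype itself was not read from them.

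The libraries held between 17822367 and 27908054 estimated reads, and the members had between 266 reads (Dpy30) and 12665 reads (Kmt2a) in a library. Summed satellite cell markers were at 2562 to 2759 TPM in Pax7WT and 2749 to 2812 TPM in Pax7KR, with none of these 8 markers at 0. TPM is the level per transcript length, scaled to the same sum in each library. The sums for markers of other cells were lower, but the lists differ in their number of genes, so the sums do not compare them per gene. The 8 endothelial markers summed to 119 to 158 TPM in Pax7WT and 136 to 196 TPM in Pax7KR. The 8 immune markers summed to 19.1 to 22.01 and 18.3 to 23.4 TPM, with Cd3e at 0. The 6 fibro-adipogenic markers summed to 194 to 226 and 183 to 271 TPM. The 6 genes of the smooth muscle and pericyte list summed to 794 to 882 TPM in Pax7WT and 720 to 857 TPM in Pax7KR. The 3 erythroid genes summed to 371 to 716 and 680 to 1124 TPM. The 5 Schwann and glial genes summed to 62.3 to 91.1 and 49.5 to 89.1 TPM, and the 7 myofibre genes to 62.1 to 79.3 and 57.6 to 79.6 TPM. Pax7KR replicate 2 stood apart in its 4 Y-linked genes (Kdm5d at 26.0 CPM, counts per TMM-normalized library size, against 58.7 to 70.9 CPM in the other 5 libraries), and Pax7WT replicate 2 in its immediate early genes (summed to 11544 TPM against 17348 to 21736 TPM). Xist was at 0.88 CPM in Pax7KR replicate 2 and at 0.437 to 2.29 CPM in the other 5 libraries, and the labels give no sex. In bulk samples such as these, fewer cells of a type and less RNA per cell cannot be told apart.

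None of the 10 members passed the test between genotypes. Of the 17152 genes, 0 had an adjusted p under 0.1 in edgeR's quasi-likelihood test with Benjamini-Hochberg adjustment (0%), and 803 had an unadjusted p under 0.05 (4.68%). Among the members 0 had an unadjusted p under 0.05, and DESeq2, which called 30 genes, also called 0 of the 10. Pax7KR values were higher for 5 members and lower for 5, with a median log2 fold change of 0.00 beside a median of 0.00 over all genes tested. The log2 fold changes of the members ran from −0.06 (Dpy30) to 0.08 (Kmt2b), with a median size of 0.04 against 0.11 over all genes tested. Their median standard error was 0.07, against 0.14 over all genes tested. In this fit, which has no offset for transcript length, the lowest bound of the 95% intervals was 0.811-fold (Dpy30) and the highest 1.16-fold (Kmt2b). Each gene has its own limits, such as 0.930-fold to 1.13-fold for Ash2l and 0.966-fold to 1.16-fold for Kmt2b.

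Leaving out each of the 6 libraries in turn gave 0 called members each time, in fits that called between 1 and 32 of all genes tested. Without Pax7KR replicate 2 the log2 fold changes of the members lay between −0.05 and 0.06, and without Pax7WT replicate 2 between −0.09 and 0.07.

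**Figure D1:**
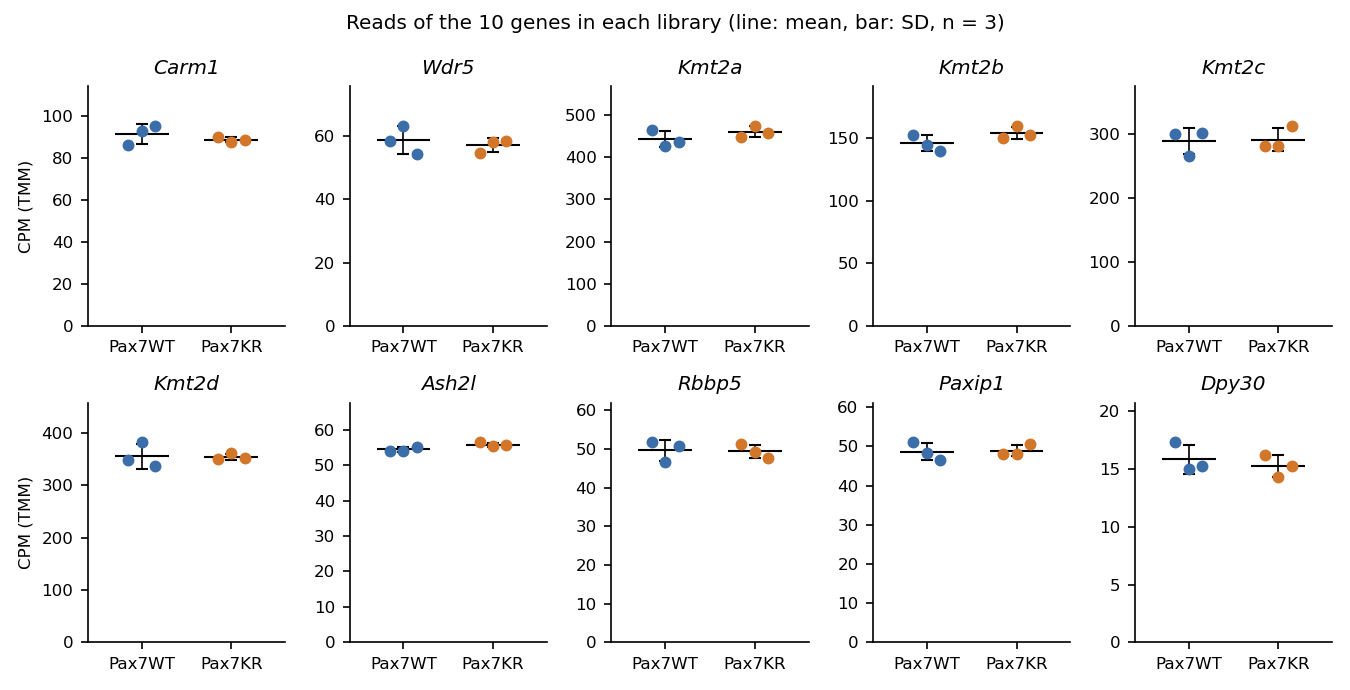
Reads of each of the 10 genes in CPM, with 1 panel per gene and the axis starting at 0. Points are libraries (3 Pax7WT in blue, 3 Pax7KR in orange), lines the means and bars the SD, and the groups overlap in every panel except that of Ash2l, where 55.21 CPM in the highest Pax7WT library lies just below 55.25 CPM in the lowest Pax7KR library.

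Carm1 (ENSMUSG00000032185, chr9:21546894-21592623, plus strand), the methyltransferase of PAX7, was at 86.2, 92.8 and 95.2 CPM in the 3 Pax7WT libraries and at 90.1, 87.6 and 88.3 CPM in the 3 Pax7KR libraries. The Pax7KR values lay inside the Pax7WT range. The means were 91.4 ± 4.65 CPM (SD, n = 3) and 88.7 ± 1.295 CPM (SD, n = 3), and the log2 fold change was −0.04 (SE 0.06, edgeR adjusted p = 0.998). Exons of Carm1 share 1025 bases with exons of Yipf2, a gene on the other strand. The library kit keeps the strand, but the strand setting of the quantification is not given in the sources used here.

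The catalytic subunits had the most reads among the members. Kmt2a (ENSMUSG00000002028, chr9:44803355-44881296, minus strand), the founding MLL gene, was at 465, 427 and 437 CPM in Pax7WT and 448, 474 and 457 CPM in Pax7KR. Its log2 fold change was 0.05 (SE 0.06, edgeR adjusted p = 0.998), and the groups overlapped. Kmt2b (ENSMUSG00000006307, chr7:30568858-30588726, minus strand), its closest relative, had the lowest unadjusted p of the members. It was at 153, 145 and 140 CPM in Pax7WT and 150, 160 and 153 CPM in Pax7KR, with 1 Pax7WT library above the lowest Pax7KR library. The means were 146 ± 6.38 CPM and 154 ± 4.85 CPM (SD, n = 3 each), and the log2 fold change was 0.08 (SE 0.06, unadjusted p = 0.201, edgeR adjusted p = 0.992).

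Kmt2c (ENSMUSG00000038056, chr5:25271798-25498783, minus strand) and Kmt2d (ENSMUSG00000048154, chr15:98831669-98871204, minus strand) encode the methyltransferases that act mainly at enhancers. Kmt2c was at 300, 265 and 302 CPM in Pax7WT and 281, 281 and 312 CPM in Pax7KR. Kmt2d was at 348, 381 and 336 CPM in Pax7WT and 349, 361 and 352 CPM in Pax7KR. In both genes the spread among Pax7WT libraries was wider than the distance between the group means, with log2 fold changes of 0.01 (SE 0.07) for Kmt2c and 0.00 (SE 0.06) for Kmt2d.

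The 4 core subunits did not differ between genotypes beyond their error. Wdr5 (ENSMUSG00000026917, chr2:27515157-27536535, plus strand), which binds the KMT2 proteins through their WIN motif, was at 58.5, 63.2 and 54.5 CPM in Pax7WT and 54.8, 58.3 and 58.5 CPM in Pax7KR. Rbbp5 (ENSMUSG00000026439, chr1:132477365-132505659, plus strand), which with ASH2L raises the activity of the SET domain, was at 51.7, 46.7 and 50.7 CPM in Pax7WT and 51.3, 49.2 and 47.8 CPM in Pax7KR. It shares 11.25% of its 31-base words with other genes, most of all Gm11977, so part of its reads could have been assigned elsewhere. For the other 9 members this share was between 0.01% and 3.59%. The log2 fold changes were −0.04 (SE 0.07) for Wdr5 and −0.01 (SE 0.07) for Rbbp5.

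Ash2l (ENSMUSG00000031575, chr8:25815996-25847694, minus strand), the subunit that pairs with RBBP5, was at 54.0, 54.0 and 55.2 CPM in Pax7WT and 56.4, 55.2 and 55.6 CPM in Pax7KR. It was the 1 member of 10 in which the groups did not overlap, which held for 1773 of 17152 genes (10.3%). The log2 fold change was 0.03 (SE 0.06, edgeR adjusted p = 0.998), and the CV over the 6 libraries was 1.67%, the lowest among the members. Dpy30 (ENSMUSG00000024067, chr17:74299474-74323944, minus strand), a small protein that binds ASH2L, had the fewest reads and the widest interval. It was at 17.3, 15.0 and 15.2 CPM in Pax7WT and 16.2, 14.3 and 15.3 CPM in Pax7KR, and its log2 fold change was −0.06 (SE 0.11, 95% interval −0.30 to 0.19). Paxip1 (ENSMUSG00000002221, chr5:27740080-27791691, minus strand), the adaptor of the KMT2C and KMT2D complexes, was at 51.0, 48.3 and 46.6 CPM in Pax7WT and 48.1, 48.1 and 50.6 CPM in Pax7KR. Its log2 fold change was 0.01 (SE 0.07), with overlapping groups.

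**Figure D2:**
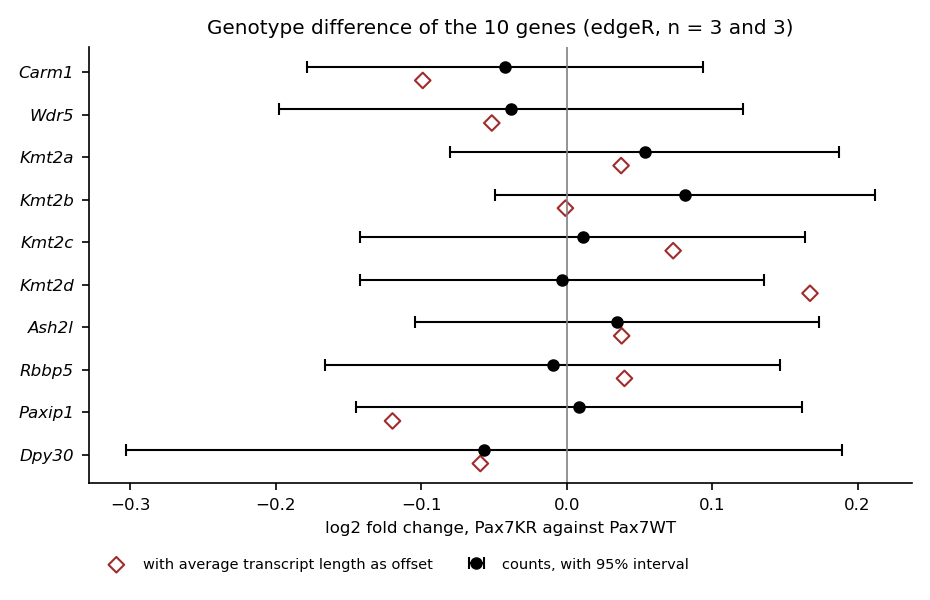
Log2 fold change of each gene between Pax7KR and Pax7WT (horizontal axis), as filled circles with 95% intervals from edgeR on counts, and as open diamonds from the same test with an offset for the average transcript length. All 10 intervals include 0, and Kmt2d has the largest gap between circle (0.00) and diamond (0.17).

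The counts above compare the reads of a gene between genotypes whatever transcript they fall on. With an offset for the average transcript length of a gene in each library, 0 members were called and 5 were again higher and 5 lower, but 4 of the 10 changed direction. Kmt2d had a log2 fold change of 0.17 with the offset (SE 0.11, unadjusted p = 0.154), Kmt2b 0.00, Rbbp5 0.04 and Paxip1 −0.12 (SE 0.08, unadjusted p = 0.173). The average transcript length of Kmt2d was 10161, 11480 and 12783 bases in Pax7WT and 9127, 10348 and 11058 bases in Pax7KR.

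The average lengths mix transcripts that differ widely in length. Kmt2d-201, a transcript of 19823 bases, held 96.5% of the reads of Kmt2d over the 6 libraries but a mean of 55.3% of its TPM. Kmt2d-204 (899 bases) and Kmt2d-203 (751 bases) held 2.20% and 0.71% of the reads, and 31.2% and 13.2% of the TPM. Short transcripts with few reads therefore carry much of the level of Kmt2d per length.

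Compared per length, the means of the 10 members ran from 27.6 TPM (Paxip1) to 62.2 TPM (Carm1). Carm1 was the highest, at 62.2 ± 2.69 TPM (SD over 6 libraries, as for the values that follow), above 85.8% of the genes tested. Kmt2d followed at 54.3 ± 7.68 TPM, Kmt2c at 50.6 ± 3.79 TPM, Dpy30 at 46.9 ± 2.73 TPM, Kmt2a at 46.4 ± 2.66 TPM and Kmt2b at 45.6 ± 1.3 TPM. Then came Wdr5 at 36.2 ± 2.24 TPM, Ash2l at 35.7 ± 2.97 TPM and Rbbp5 at 32.5 ± 2.73 TPM. Paxip1 was lowest in each of the 6 libraries, at 27.6 ± 1.14 TPM, above 68.6% of the genes tested. Dpy30, with the fewest reads, was thus among the upper members per length, since its transcripts have a mean effective length of 542 bases against 15959 bases for Kmt2a.

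Neighbours in this order mostly did not differ beyond their spread. Carm1 was above Kmt2d in 5 of 6 libraries, and Kmt2d above Kmt2c, Kmt2c above Dpy30 and Dpy30 above Kmt2a in 4 of 6 libraries each. Kmt2a was above Kmt2b in 3 of 6. Kmt2b was above Wdr5, Ash2l above Rbbp5, and Rbbp5 above Paxip1 in 6 of 6 libraries. As a share of the TPM of Pax7 itself (542 ± 35.4 TPM), the members ran from 5.11% (Paxip1) to 11.5% (Carm1).

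**Figure D3:**
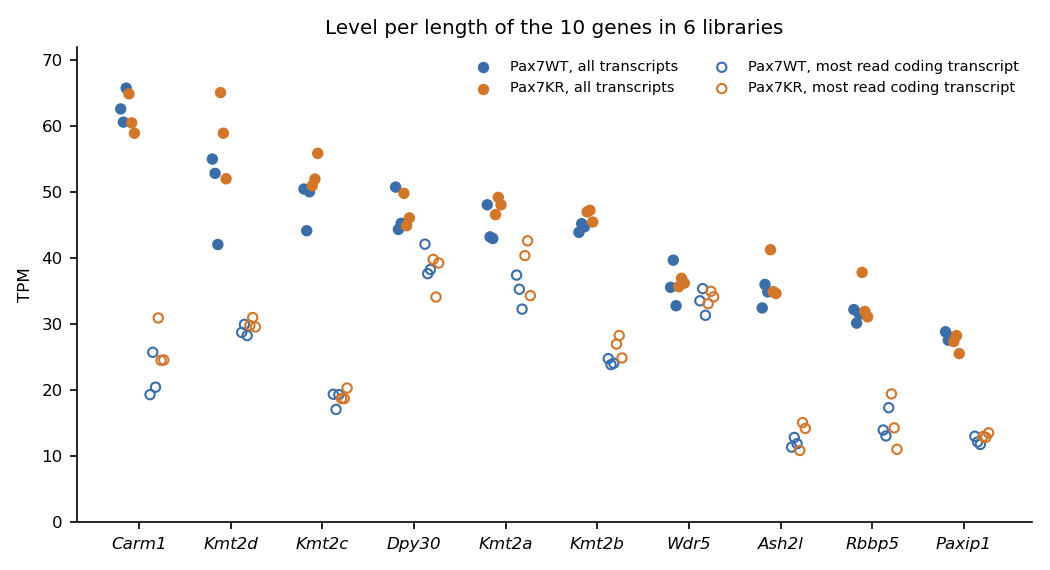
TPM of the 10 genes in the 6 libraries, ordered by their mean, with filled points for the sum over all transcripts of a gene and open points for its most read protein-coding transcript alone. Paxip1 is lowest in all libraries by the sum. The order of the means differs for the open points, where Dpy30 (38.6 TPM) has the highest mean and Carm1 (24.3 TPM) is at place 6.

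The order depended on which transcripts were counted. By the most read protein-coding transcript alone, a comparison chosen after seeing the data, Dpy30-206 was highest at 38.6 ± 2.66 TPM and Kmt2a-201 next at 37.1 ± 3.89 TPM. Kmt2a-201 was above Dpy30-206 in Pax7KR replicate 1 (40.4 against 39.8 TPM) and Pax7KR replicate 2 (42.6 against 34.1 TPM). Wdr5-201 was at 33.8 ± 1.45 TPM and Kmt2d-201 at 29.6 ± 0.96 TPM. Carm1-201 was at 24.3 ± 4.14 TPM, and Ash2l-201 and Paxip1-201 were lowest, both at 12.7 TPM (SD 1.66 and 0.638). The place of Ash2l depends on choosing by reads, since its shorter coding transcript Ash2l-210 had a higher mean, at 14.3 ± 2.2 TPM. For Carm1, 58.4% of the TPM lay on transcripts annotated as protein-coding, against 46.3% for Paxip1 and 100% for Kmt2d and Dpy30.

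The summed TPM of the 4 catalytic genes was 198, 186 and 180 in Pax7WT and 210, 207 and 202 in Pax7KR, with no overlap of the groups and a ratio of the means of 1.10. How often TPM or sums of genes separate the groups was not counted (10.3% of all genes did on CPM). The sum includes the short Kmt2d-204, which held 2.20% of the reads of Kmt2d. Kmt2d-204 was at 19.7, 16.4 and 8.51 TPM in Pax7WT and 24.8, 17.8 and 16.5 TPM in Pax7KR. Kmt2d-201 was at a mean of 29.0 TPM in Pax7WT and 30.2 TPM in Pax7KR. The separation of the sums was not seen on every scale. On CPM scaled by length with TMM library sizes the sums were 122.82, 116.62 and 112.27 in Pax7WT and 123.27, 122.77 and 123.23 in Pax7KR, which overlap through Pax7WT replicate 1 and Pax7KR replicate 2 alone, with a ratio of 1.05. On CPM, without length, the ratio was 1.02 and the groups overlapped. The mean of the 4 core subunits was at 36.1 to 37.8 TPM in Pax7WT and 37.0 to 41.2 TPM in Pax7KR, and the highest core subunit was 1.40 to 1.58 times the lowest in each library.

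The members have 72 annotated transcripts, of which 54 were tested and 20 held 10% or more of the reads of their gene. Among all 54853 transcripts tested, edgeR called 0 at an adjusted p under 0.1 (0%), and for 2197 the unadjusted p was under 0.05 (4.01%). Of the 54 member transcripts, 0 were called and 2 had an unadjusted p under 0.05. One was Carm1-203, and the other was Kmt2a-204, which held 0.148% of the reads of Kmt2a and is named here after its values were seen. Kmt2a-204, annotated as a target of nonsense-mediated decay, had 43.5, 46.0 and 0.0 estimated reads in Pax7WT and 0 in each Pax7KR library, so that 2 Pax7WT libraries alone gave it reads.

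The reads of some members were nearly all on 1 transcript. Wdr5-201 held 97.6% to 99.1% of the reads of Wdr5 across the libraries, Kmt2d-201 93.8% to 98.3%, Paxip1-201 88.2% to 91.5% and Dpy30-206 79.3% to 89.1%. Kmt2c was divided between the full-length Kmt2c-201 (59.9% to 61.6%) and the shorter coding Kmt2c-208, which has 18 exons against 59 and held 23.5% to 26.6%. In Rbbp5 the division varied widely between libraries of 1 genotype, with Rbbp5-207 at 46.8%, 48.6% and 59.0% in Pax7WT replicates 1, 2 and 3 and at 62.0%, 47.6% and 39.3% in Pax7KR replicates 1, 2 and 3. Ash2l was spread over Ash2l-201 (36.1% to 51.4%), Ash2l-210 (26.9% to 39.7%) and the decay target Ash2l-208 (8.65% to 18.6%).

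Carm1 had 4 transcripts with 10% or more of its reads, the highest number among the members. Carm1-201, with all 16 exons, held 41.0%, 52.0% and 39.5% of the reads in Pax7WT and 59.9%, 49.6% and 50.2% in Pax7KR. Carm1-203, which skips exon 15, held 19.2%, 16.4% and 24.8% in Pax7WT and 9.26%, 14.1% and 15.5% in Pax7KR. Every Pax7KR library was thus below every Pax7WT library for Carm1-203, while the groups overlapped for Carm1-201. The remaining reads were mostly on Carm1-204, a target of nonsense-mediated decay (13.4% to 21.4%), and on Carm1-209, which retains an intron (7.19% to 14.4%), both with overlapping groups.

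The estimated reads of Carm1-203 were 450, 269 and 484 in Pax7WT and 191, 295 and 289 in Pax7KR. In CPM it was at 16.7, 15.2 and 23.5 against 8.45, 12.4 and 13.6, and the log2 fold change was −0.68 (SE 0.25, 95% interval −1.29 to −0.08, unadjusted p = 0.0326, edgeR adjusted p = 1.0 over all transcripts). It did not pass the adjusted test. Without Pax7WT replicate 3 the log2 fold change was −0.47 (unadjusted p = 0.104), without Pax7KR replicate 1 −0.51 (unadjusted p = 0.0813) and without Pax7KR replicate 2 −0.74 (unadjusted p = 0.0575), all from edgeR. Of the 18 member transcripts with 10% to 90% of the reads of their gene, Carm1-203 was the 1 whose share was lower in Pax7KR without overlap, and this held for 925 of 18610 such transcripts over all tested genes (4.97%). In either direction the share did not overlap for 1 of the 18 and for 1837 of the 18610 (9.87%).

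Read by the exon, the same values give the skipping of exon 15 among the transcripts that show whether the exon is kept. These are Carm1-203, which skips it, and Carm1-201, Carm1-204 and Carm1-206, which keep it. Skipping was at 24.2%, 20.02% and 28.8% in Pax7WT and at 10.7%, 17.8% and 18.8% in Pax7KR. The difference was −8.56 percentage points (exact permutation test, two-sided, p = 0.1, the smallest that 3 against 3 samples allow). This p-value is no separate support, since the skipping form is Carm1-203 alone, whose share was already seen not to overlap. Without any 1 of the libraries the difference lay between −10.72 and −6.03 points. Carm1-203 also starts 19 bases later and ends 20 bases further than Carm1-201, so exon 15 is not the only sequence that tells them apart. The split is an estimate of the quantification, since most reads of Carm1 fall on sequence that these transcripts share, and junction reads were not analysed here.

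**Figure D4:**
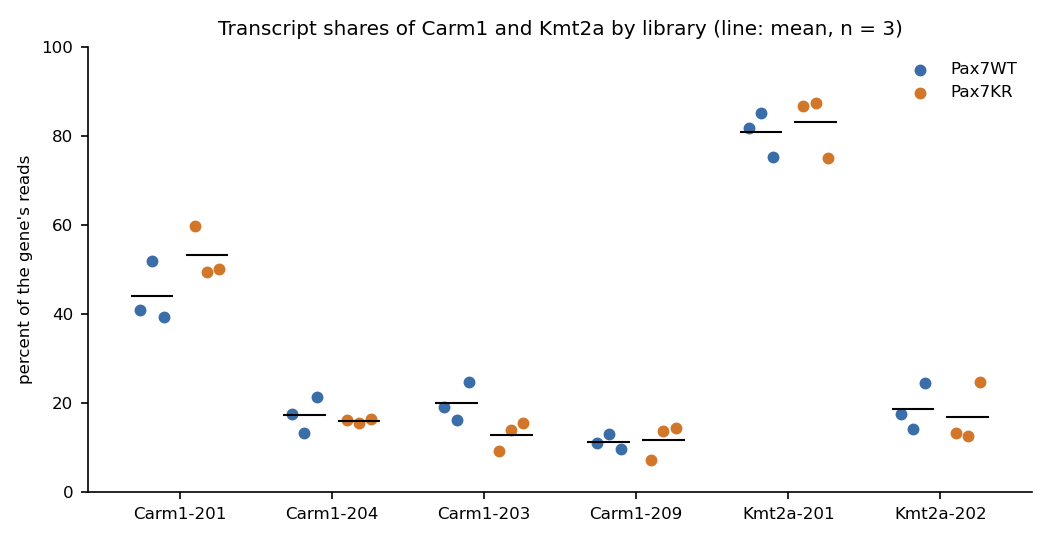
Percent of the reads of Carm1 (4 transcripts) and Kmt2a (2 transcripts) that each transcript held, by library, with Pax7WT in blue, Pax7KR in orange and lines at the means. For Carm1-203 the 3 Pax7KR points (9.26% to 15.5%) lie below the 3 Pax7WT points (16.4% to 24.8%), and for the other 5 transcripts the groups overlap.

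For Kmt2a the 2 coding transcripts differ by the 9 bases shown above. The form with these bases was at 17.8%, 14.3% and 24.5% in Pax7WT and at 13.3%, 12.6% and 24.8% in Pax7KR of the reads of transcripts that show 1 form or the other. In each genotype replicate 3 was the highest, and the difference of the means was −1.95 points (exact permutation test, two-sided, p = 0.6).

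The genes that work with or against the members were read from lists by role. None of their genes was called in edgeR, nor in DESeq2 without the length offset. Of the 14 other COMPASS-like subunits and partners, 10 were higher and 4 lower in Pax7KR, with a median log2 fold change of 0.04 and 1 gene with an unadjusted p under 0.05 (4.68% of all genes). This was Cxxc1, the CpG-binding subunit of the SETD1 complexes, at 77.7, 100 and 95.03 CPM in Pax7WT and 107, 99.2 and 114 CPM in Pax7KR. Its groups overlapped, and its log2 fold change was 0.23 (SE 0.09, unadjusted p = 0.030, edgeR adjusted p = 0.992). Kdm6a, the H3K27 demethylase of the KMT2C and KMT2D complexes, had a log2 fold change of 0.13 (SE 0.08). Pagr1a, the partner of PAXIP1, had 12 to 315 reads in a library and shares 93.2% of its 31-base words with other genes, so its value of −0.66 (SE 1.45) is uncertain.

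Among the 7 tested of the 8 other arginine methyltransferases, 4 were higher and 3 lower (median log2 fold change 0.02), 0 had an unadjusted p under 0.05, and Prmt8 did not pass the filter. Prmt2 had 0.34 (SE 0.17, unadjusted p = 0.071) and Prmt3 −0.13 (SE 0.11). Among 6 other SET-domain or MLL-like genes, 4 were higher and 2 lower and again 0 had an unadjusted p under 0.05, with Smyd2 at −0.11 (SE 0.10) and Smyd3 at 0.07 (SE 0.10). Among the 6 H3K4 demethylases, which remove the mark that the members place, 4 were higher and 2 lower and the count at an unadjusted p under 0.05 was also 0. Kdm5b had 0.06 (SE 0.07) and Kdm5c, on the X chromosome, 0.04 (SE 0.07). Kdm5d, on the Y chromosome, was at 63.5, 66.7 and 64.0 CPM in Pax7WT and 58.7, 26.0 and 70.9 CPM in Pax7KR. Its log2 fold change of −0.32 (SE 0.40) became 0.00 without Pax7KR replicate 2, and Uty, the Y-linked relative of Kdm6a, went from −0.34 to 0.01.

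Polycomb repressive complex 2 places the opposing mark on lysine 27 of histone H3. Of its 11 genes 5 were higher and 6 lower (median log2 fold change −0.04), with 1 unadjusted p under 0.05 (4.68% of all genes). Ezh1, the methyltransferase of resting cells, was at 155, 163 and 169 CPM in Pax7WT and 176, 189 and 172 CPM in Pax7KR, without overlap (10.3% of all genes). Its log2 fold change was 0.14 (SE 0.06, unadjusted p = 0.040, edgeR adjusted p = 0.992). Mtf2, an accessory subunit, had −0.16 (SE 0.08).

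The last list held PAX7, its targets Myf5 and Myod1, and the p38-gamma kinase and dystrophin-linked proteins that hold CARM1 away from PAX7 in satellite cells. Of these 6 genes 4 were higher and 2 lower, with 1 unadjusted p under 0.05 (4.68% of all genes). Pax7 was at 1666, 1506 and 1480 CPM in Pax7WT and 1410, 1460 and 1637 CPM in Pax7KR, with a log2 fold change of −0.05 (SE 0.08). Myf5, the target at which CARM1 and the MLL complex were studied, was at 436, 413 and 434 CPM in Pax7WT and 456, 448 and 402 CPM in Pax7KR, with 0.02 (SE 0.07). Sntb1, which encodes beta-1-syntrophin, was at 16.3, 23.8 and 25.5 CPM against 21.6, 33.4 and 36.3 CPM, with 0.48 (SE 0.26, edgeR unadjusted p = 0.111). Its log2 fold change ran from 0.22 to 0.68 over the alternatives. The lowest unadjusted p was 0.000465 (edgeR with the replicate block, adjusted p = 0.266). With the length offset the log2 fold change was 0.23 (edgeR, unadjusted p = 0.49).

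Dmd, the dystrophin gene, was at 362, 348 and 403 CPM in Pax7WT and 423, 401 and 458 CPM in Pax7KR, with 1 Pax7KR library just below the highest Pax7WT library. Its log2 fold change was 0.20 (SE 0.07, unadjusted p = 0.016, edgeR adjusted p = 0.992). With the length offset it was 0.37 (SE 0.09, edgeR adjusted p = 0.764), and DESeq2 with that offset gave an adjusted p = 0.0856, the 1 call among the genes of these lists under any alternative tried. Over all alternatives the adjusted p of Dmd ran from 0.0856 to 1.0. The average transcript length of Dmd was 5003, 4847 and 4646 bases in Pax7WT and 4574, 4013 and 4350 bases in Pax7KR.

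**Figure D5:**
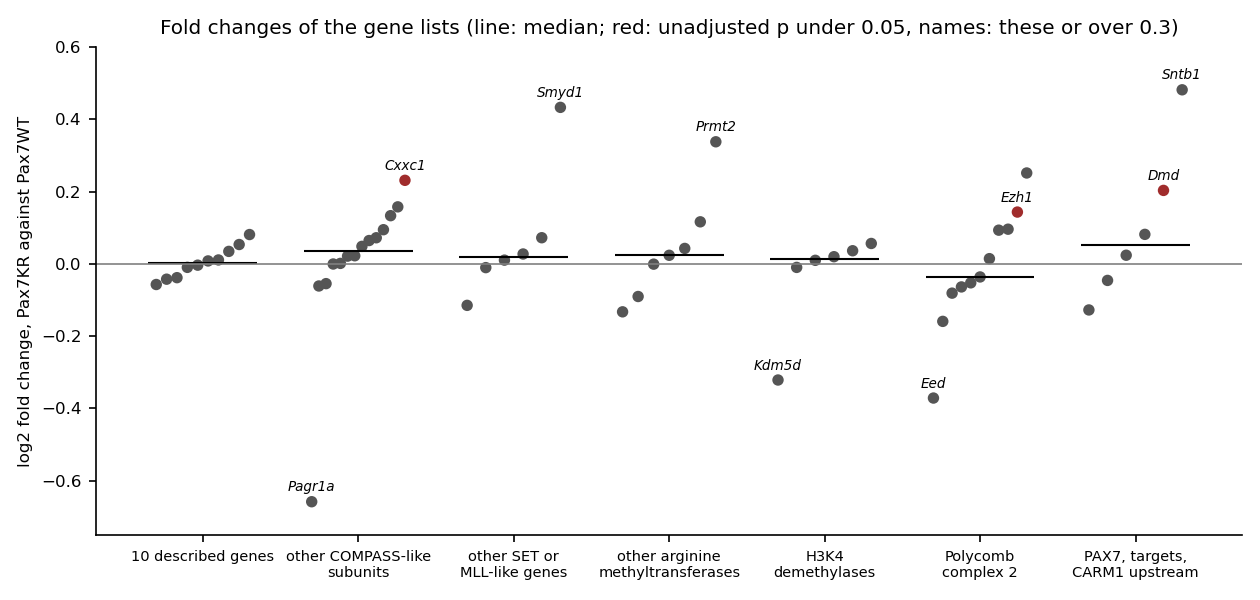
Log2 fold change between Pax7KR and Pax7WT for the 10 genes and for the tested genes of the 6 lists, with lines at the medians and red points for an unadjusted p under 0.05. The 10 genes lie between −0.06 and 0.08, Cxxc1, Ezh1 and Dmd are the red points, and other genes are named where the size is over 0.3.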

How the data were processed

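The authors quantified paired reads with salmon (version 1.3.0) against GENCODE transcripts of GRCm38 with genome decoys, and deposited an estimated count, a TPM value and an effective length for each transcript and library. The authors' deposited table of their own DESeq2 (version 1.28.1) comparison holds log2 fold changes, standard errors, p-values, adjusted p-values and mean normalized counts, and was not used. The submitters' processing notes name these versions.

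Here the deposited estimated counts were summed per gene and rounded. Of 140992 transcripts, 99.15% were matched by identifier to an earlier GENCODE release on GRCm38, which also gave coordinates, exons and sequences, and 0.592% to 0.634% of the reads of a library were on the others. Genes, and separately transcripts, reaching 5 reads in at least 2 libraries entered a test of genotype alone with edgeR (version 4.0.16) under R (version 4.3.3), with TMM, robust quasi-likelihood shrinkage and Benjamini-Hochberg adjustment over all of them, at a cut-off of 0.1. Gene TPM is the sum of the deposited TPM over transcripts. The biological coefficient of variation was 13.75%. No library was a copy of another (chi-square per gene 11.0 to 25.2 over pairs). The fits were tested on simulated data.

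The members and the lists were chosen with earlier results of these data known. From each list the text names every gene called, otherwise the 2 genes of smallest unadjusted p, and always Pax7, Myf5, Kdm6a, Kdm5c, Kdm5d and Uty. Pagr1a and Kmt2a-204 were named after their values were seen. Transcripts are those with 10% or more of the reads of a member. The alternatives were DESeq2 (version 1.42.0) with and without the length offset, RLE and upper-quartile scaling, other filters, a length offset, no robust shrinkage, a stricter cut-off (0.05), a replicate block and fits lacking 1 library each. Exact permutation tests ran in scipy (version 1.17.1) under Python (version 3.11.15).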

Additional observations from a re-analysis of the deposited data

How the results depend on the processing

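The 10 members gave 0 calls under all the alternatives run, and their median log2 fold change stayed between −0.01 and 0.02. The 20 member transcripts with 10% or more of the reads of their gene also gave 0 calls. Member transcripts with a smaller share were not counted in each alternative. Over all genes, where edgeR called 0, DESeq2 called 30, DESeq2 with the length offset 45 and edgeR without a filter on low counts 157. With 1 library left out the count was between 1 and 32, the highest without Pax7KR replicate 3, and for transcripts between 0 and 1. Among the genes of the lists 1, Dmd, was called by DESeq2 with the length offset. Without the filter 24068 genes were tested in place of 17152. The cause of the differences in count between these fits was not tested.

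With the replicate number as a block (replicate block), 13 genes, 0 members and 0 member transcripts were called. Deviations of samples with the same number correlated at 0.02, 0.095 and −0.053 over 12075 genes. Samples with different numbers correlated at −0.118 to 0.099, so the numbers were not taken to pair the samples.

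No direction is given for most members, since their fold changes crossed 0. With the length offset, in edgeR and DESeq2, Kmt2d was at 0.1673 and 0.1676, Rbbp5 at 0.0397 and 0.0398, Paxip1 at −0.1198 and −0.1196, Kmt2b at −0.0009 and −0.0001, and Kdm5c at −0.0387 and −0.0382. With 1 library left out, Wdr5 ran from −0.0893 to 0.0165, Kmt2c from −0.047 to 0.0436, Kmt2d from −0.0422 to 0.051, Rbbp5 from −0.0522 to 0.0198, Paxip1 from −0.0215 to 0.0443 and Dpy30 from −0.103 to 0.0121. Likewise Pax7 ran from −0.111 to 0.0087, Myf5 from −0.0114 to 0.079, Kdm5c from −0.0069 to 0.0892, Prmt3 from −0.25 to 0.0002, Kdm5d from −0.61 to 0.0018 and Uty from −0.57 to 0.005. Carm1, Kmt2a and Ash2l were the 3 members that kept their direction in all 15 alternatives. Of the 19 member transcripts other than Carm1-203, 14 changed direction in 1 or more of 8 alternatives. Length-scaled CPM in place of TPM cannot move the level of a member relative to Pax7, since both scales divide by the same average length. That alternative therefore tests nothing about these levels. The most read coding transcript alone was an alternative chosen after seeing the data. With it the level relative to Pax7 moved by more than its SD between libraries for 9 of 10 (not for Wdr5).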
